A study of Rattus norvegicus with 8 samples.

Results

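Light responses of photoreceptors are ended by a small set of proteins that switch off the opsin, the G protein and the fall in cyclic GMP, several of them under the control of calcium. The 7 genes Sag, Arr3, Grk1, Rcvrn, Rgs9, Cabp4 and Guca1a encode members of this set or calcium sensors that act beside it, and were followed here in the developing rat pineal gland. They were taken by gene symbol from a list drawn up with earlier results of these data known. Each of the 7 is present once among the 16462 gene symbols (16932 RefSeq transcripts) of the data. The libraries are polyadenylated RNA of pineal glands from Sprague-Dawley rats kept under 14 h of light and 10 h of darkness, with no other treatment named. Glands were taken at embryonic day 21 (E21) and at postnatal days 5, 20 and 40 (P5, P20 and P40), each at mid-day (7 h after lights on in zeitgeber time) and at mid-night (19 h). Each of the 8 libraries is 1 pool of glands, made from 13 animals (mid-day) and 15 (mid-night) at E21, 17 and 19 (P5), 13 and 10 (P20) and 3 and 3 (P40). A test here therefore measures the spread between single pools, with the mid-day and mid-night pools of an age standing in for replicates when ages were compared. Levels are FPKM (fragments per kilobase of transcript, relative to all mapped fragments of the library). They are per length, so levels of different genes can be set side by side, although small differences between genes do not rank them because exons were not analysed. Changes are differences of log2(FPKM + 1).

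In rods and cones, a light-activated opsin is phosphorylated by an opsin kinase, the product of Grk1, and is then capped by an arrestin, the rod form from Sag or the cone form from Arr3. Recoverin, from Rcvrn, holds the kinase back while calcium is high. The product of Rgs9 speeds the shutoff of transducin, GCAP1 from Guca1a activates the retinal guanylate cyclase once calcium has fallen, and CaBP4 from Cabp4 acts on the presynaptic calcium channel of photoreceptors. Pinealocytes, the melatonin-making cells of the gland, are related to retinal photoreceptors and share many of their genes, although the adult mammalian gland is timed through nerves from the eye's light pathway rather than by its own light response.

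The promoters of Cabp4 and Guca1a are shown because these genes were low at E21 and higher at P20, and because they hold the core letters TAATCC, the sequence bound by CRX and OTX2, homeodomain factors of photoreceptors and pinealocytes. That of Sag, which was already abundant at E21, is shown for contrast. Arr3, not shown, was also low at E21 and higher at P20 (means of 0.0350 and 2.51 FPKM), and its window holds TAATCC at 0 places. Because 2 promoters were picked partly for these letters, a link between the letters and the timing was not tested. Sequences are from RefSeq on GRCr8, 250 bases before to 50 bases after the gene's start, written 5′ to 3′ along the gene's strand, and capitals mark TAATCC or its reverse complement.
Cabp4: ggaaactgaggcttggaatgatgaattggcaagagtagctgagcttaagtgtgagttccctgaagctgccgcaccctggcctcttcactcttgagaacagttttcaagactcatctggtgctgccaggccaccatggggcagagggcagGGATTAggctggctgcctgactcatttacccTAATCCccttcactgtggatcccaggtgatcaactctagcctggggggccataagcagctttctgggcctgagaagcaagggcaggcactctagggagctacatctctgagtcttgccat
Guca1a: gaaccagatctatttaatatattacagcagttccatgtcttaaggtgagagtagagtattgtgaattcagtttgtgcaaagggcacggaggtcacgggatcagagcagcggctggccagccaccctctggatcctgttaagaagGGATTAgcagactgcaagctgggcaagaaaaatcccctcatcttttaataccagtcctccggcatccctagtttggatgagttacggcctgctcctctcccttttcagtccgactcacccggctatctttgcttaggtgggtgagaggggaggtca
Sag: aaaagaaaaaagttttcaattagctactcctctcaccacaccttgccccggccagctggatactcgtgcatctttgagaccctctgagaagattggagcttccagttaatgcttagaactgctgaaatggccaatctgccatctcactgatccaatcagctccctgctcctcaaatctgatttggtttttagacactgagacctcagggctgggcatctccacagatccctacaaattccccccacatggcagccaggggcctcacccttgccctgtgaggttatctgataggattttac
They lie at chr1:210862583-210862882 on the minus strand for Cabp4, chr9:21086392-21086691 on the plus strand for Guca1a and chr9:95916947-95917246 on the plus strand for Sag. Of the 7 genes, 5 had a promoter in the table (Sag, Arr3, Rgs9, Cabp4 and Guca1a). On either strand, TAATCC occurred at 2 places for Cabp4, 101 and 70 bases before the start, and at 1 place for Guca1a, 106 bases before it. It occurred at 0 places in the windows of Sag, Arr3 and Rgs9, and 7.17% of the 33469 promoters in the table hold it. The E-box letters CANNTG were found 2 times for Sag, 1 time for Arr3, 4 times for Rgs9, 2 times for Cabp4 and 0 times for Guca1a, against a share of 72.1% of all promoters. The cAMP response element TGACGTCA (1.83% of promoters) and the TGACG inside it (21.2%) were in 0 of the 5 windows. These matches describe letters and no binding was measured. Crx and Otx2 themselves were abundant in every library, at 104 to 195 FPKM and 134 to 274 FPKM.

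On rn4, the build of the deposited values, the transcripts span 9:86759933-86799902 (Sag), X:88602647-88614721 (Arr3), 16:80979323-80991796 (Grk1), 10:54409087-54416833 (Rcvrn), 10:98598326-98652880 (Rgs9), 1:206718302-206722801 (Cabp4) and 9:9046617-9056984 (Guca1a). Exons and untranslated regions were not analysed. None of the 7 spans (0 transcripts for each) overlapped another gene's transcript in the data. The closest neighbour is Guca1b, the GCAP2 gene, 1053 bases from Guca1a.

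The libraries differ in ways that touch these genes. The lowest FPKM step, worth 1 fragment on a 1-kb transcript, ranged from 0.0279 FPKM at P40 mid-night to 0.0679 FPKM at P20 mid-day, so the P20 mid-day library was the shallowest, at 0.411 of the deepest. The 8 pinealocyte markers summed to 586 and 610 FPKM at E21 and to between 2753 and 5320 FPKM from P5 on. Of these sums, Tph1 alone gave 331 and 370 FPKM at E21 and 1740 to 2756 FPKM later. In an F test over the 4 ages (limma), 6 of the 8 markers passed. Crx (adjusted p = 0.767) and Aanat (adjusted p = 0.289) did not. The 9 choroid plexus markers summed to 17818 FPKM in the P5 mid-night library and to between 553 and 3064 FPKM in the other 7. Ttr alone gave 17323 FPKM at P5 mid-night, and 8 of the 9 markers were called higher at P5 than at E21 (limma). The 5 fibroblast markers summed to 629 and 867 FPKM at E21 and 101 and 72.8 FPKM at P40. Sums lay between 35.5 and 81.2 FPKM for astrocytes, 14.6 and 47.6 for microglia and macrophages, 12.01 and 45.4 for endothelium, 3.57 and 15.3 for oligodendrocytes and Schwann cells, 0.331 and 10.97 for skeletal muscle, and 1357 and 12274 for erythroid cells. Of the brain neuron markers, 12 of 13 were found and 7 of these stayed under 1 FPKM in every library, with sums from 21.8 to 107 FPKM. Slc17a6 alone gave 17.5 to 99.7 FPKM of these sums. Of the markers of retinal bipolar, amacrine and other retinal neurons, 9 of 10 were found and 5 of these stayed under 1 FPKM, with sums from 43.7 to 81.6 FPKM. No marker in any list was at 0 in all libraries. In pooled tissue, fewer cells of a type and less RNA per cell cannot be told apart, and the part of cell makeup in the values that follow was not tested.

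All 7 genes changed with age in the F test of limma over the 4 ages (adjusted p from 3.87e-05 for Grk1 to 0.0108 for Rcvrn), where 36.4% of the 9960 tested transcripts did. P40 was higher than E21 for 6 of them, all but Rcvrn, against 16.1% of transcripts higher and 26.8% lower. Their median change from E21 to P40 was 2.56 on the log2 scale, beside -0.18 over all tested transcripts. Because the 7 were chosen with earlier results of these data known, such shares and medians describe them and do not test them as a set. The level at E21 set them apart from one another: Sag was at 21.6 FPKM and Rgs9 at 14.1 FPKM, whereas the other 5 had means from 0.0350 to 2.26 FPKM. Each of the 6 calls from E21 to P40 was kept in every alternative in which the gene was tested. Where libraries of different ages are said below to overlap or not, this describes the values. The share of all transcripts separated in the same way was not counted.

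**Figure D1:**
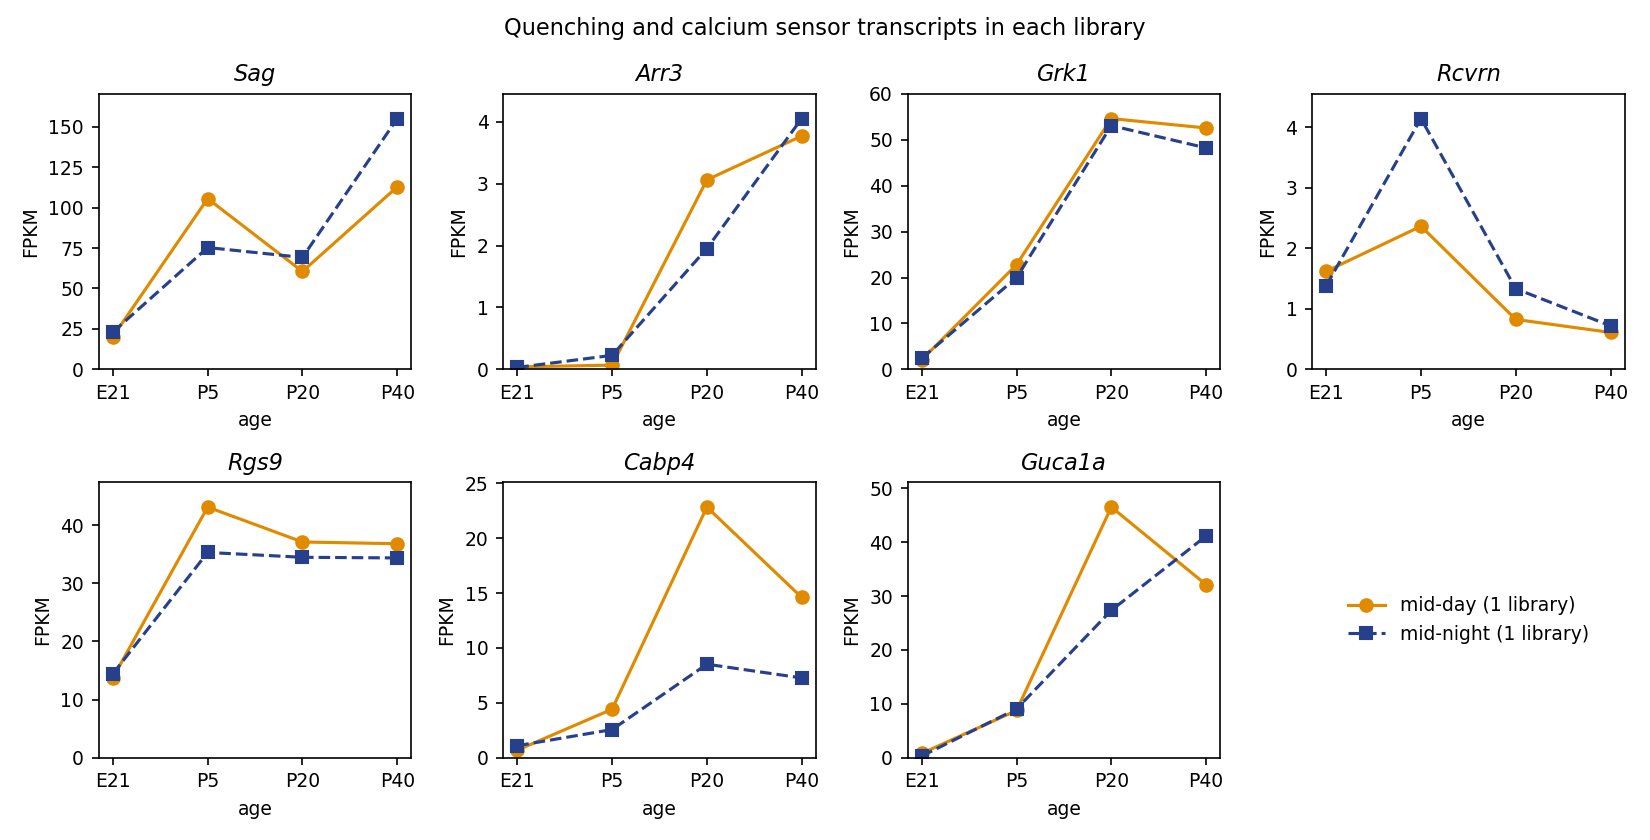
FPKM of each gene in the 8 libraries, by age (ages equally spaced, not to scale), with circles and a solid line for mid-day, squares and a dashed line for mid-night, and a linear axis from 0 that differs between panels. Sag reaches 155 FPKM at P40 mid-night, Arr3 is at most 0.226 FPKM through P5, and Rcvrn is highest at P5 and lowest at P40.

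Sag encodes S-antigen, the rod arrestin. It was measured at 20.2 and 23.0 FPKM at E21 (mid-day, then mid-night), then 106 and 75.3 (P5), 60.5 and 69.2 (P20) and 113 and 155 (P40). Both E21 libraries lay below all 6 later ones and both P40 libraries above all others, while P20 lay below P5. The age means were 21.6 ± 2.0, 90.4 ± 21.4, 64.8 ± 6.13 and 134 ± 29.8 FPKM (SD, n = 2 libraries an age). Sag rose by 2.0 ± 0.25 (SE) on the log2 scale from E21 to P5 (limma adjusted p = 0.00275) and stood 2.56 ± 0.25 above E21 at P40 (adjusted p = 0.000239), a 6.19-fold higher mean. The differences of -0.46 from P5 to P20 (adjusted p = 0.307) and 1.02 from P20 to P40 (unadjusted p = 0.00367, adjusted p = 0.321) did not pass. At P40, Sag lay above 99.1% of the tested transcripts, up from 87.1% at E21.

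Arr3, the cone arrestin gene, had a much lower level and a later start. It was at 0.0391 and 0.0309 FPKM at E21, near the value of 1 fragment on a 1-kb transcript, then 0.0680 and 0.226 (P5), 3.06 and 1.95 (P20) and 3.77 and 4.05 (P40). The libraries of P20 and P40 all lay above those of E21 and P5, and because the early values rest on so few fragments no fold is given against E21. Its mean was 0.147 ± 0.112 FPKM at P5, 2.51 ± 0.784 at P20 and 3.91 ± 0.199 at P40 (SD, n = 2). Arr3 did not pass from E21 to P5 (0.14 ± 0.21, adjusted p = 0.684), rose by 1.6 ± 0.21 from P5 to P20 (adjusted p = 0.00735) and was 2.25 ± 0.21 above E21 at P40 (adjusted p = 0.000205, limma). As a share of the 2 arrestin genes' summed FPKM, Arr3 made 0.193% and 0.134% at E21, then 0.0644% and 0.299% (P5), 4.82% and 2.75% (P20) and 3.23% and 2.55% (P40). The cone form thus made at most 4.82% of the arrestin signal in any library. Of the ubiquitous arrestins, Arrb1 differed by 0.19 between E21 and P40 (adjusted p = 0.529) and Arrb2, at most 0.724 FPKM, was under the filter for testing.

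Grk1, the opsin kinase gene, rose in 2 steps, both before P20. It was at 2.09 and 2.43 FPKM at E21, then 22.8 and 20.0 (P5), 54.6 and 53.1 (P20) and 52.6 and 48.2 (P40), with no overlap between E21, P5 and the 2 later ages. The means were 2.26 ± 0.244, 21.4 ± 2.0, 53.9 ± 1.08 and 50.4 ± 3.07 FPKM (SD, n = 2), a 22.3-fold difference between P40 and E21. Grk1 rose by 2.78 ± 0.17 from E21 to P5 (limma adjusted p = 0.000291) and by a further 1.3 ± 0.17 to P20 (adjusted p = 0.00735), and P40 differed from P20 by -0.10. The ratio of Sag to Grk1 FPKM moved with these steps, from 9.69 and 9.48 at E21 to 4.63 and 3.77 at P5 and 1.11 and 1.3 at P20, then 2.14 and 3.21 at P40. The FPKM of Sag thus exceeded that of Grk1 in every library, least at P20. Exons were not analysed, so a ratio near 1 does not rank the 2 transcripts.

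Rcvrn, whose product recoverin restrains the kinase, went another way. It was at 1.62 and 1.38 FPKM at E21, then 2.37 and 4.15 (P5), 0.825 and 1.33 (P20) and 0.610 and 0.719 (P40). Both P5 libraries lay above the other 6, and both P40 libraries below the other 6. The means were 1.50 ± 0.168, 3.26 ± 1.26, 1.08 ± 0.360 and 0.664 ± 0.0770 FPKM (SD, n = 2), so the P40 mean was 0.442 of that at E21. Rcvrn fell by 1.01 ± 0.22 on the log2 scale from P5 to P20 (limma adjusted p = 0.0348), whereas 0.74 from E21 to P5 (adjusted p = 0.0626) and -0.59 from E21 to P40 (adjusted p = 0.0643) did not pass. Its P5 mid-night value, the highest of the 8, comes from the library with the highest sum of choroid plexus markers. Without that library the age F test of Rcvrn gave an adjusted p of 0.0595 and the fall from P5 to P20 one of 0.273, and that fall was called in 6 of 15 alternatives (limma adjusted p from 0.0294 to 0.273). The P5 mid-day value of 2.37 FPKM was above all 6 libraries of other ages, and this library also had the second highest sum of these markers, 3064 FPKM against 553 to 1392 at the other ages. The part of choroid plexus RNA in the Rcvrn values was not tested. Levels near 1 FPKM placed Rcvrn above 29.8% of tested transcripts at P5 and above 7.07% at P40.

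Rgs9, the gene of the transducin GTPase activator, had a single step. It was at 13.8 and 14.4 FPKM at E21, then 43.1 and 35.3 (P5), 37.1 and 34.5 (P20) and 36.8 and 34.4 (P40). The E21 libraries lay below all others, and the 3 later ages overlapped. The means were 14.1 ± 0.485, 39.2 ± 5.51, 35.8 ± 1.86 and 35.6 ± 1.73 FPKM (SD, n = 2), so P40 was 2.52-fold above E21. Rgs9 rose by 1.41 ± 0.17 from E21 to P5 (limma adjusted p = 0.0026) and was 1.28 ± 0.17 above E21 at P40 (adjusted p = 0.00105). The changes of -0.12 from P5 to P20 (adjusted p = 0.717) and -0.01 from P20 to P40 did not pass.

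The RGS9 protein is stable only with the G protein subunit from Gnb5 and is anchored to the membrane by the product of Rgs9bp. Gnb5 was at 1.2 and 1.68 FPKM at E21, then 10.2 and 7.93 (P5), 9.45 and 10.7 (P20) and 5.22 and 8.31 (P40), and rose by 2.05 from E21 to P5 (limma adjusted p = 0.00209). Rgs9bp was at 0.675 and 0.666 FPKM at E21, then 2.68 and 1.64 (P5), 3.01 and 1.27 (P20) and 2.61 and 0.585 (P40), and its change from E21 to P40 did not pass (0.52 ± 0.28, adjusted p = 0.167). In each library Rgs9 was the most abundant of the 3, at 3.21 to 11.5 times Gnb5 and 12.3 to 58.7 times Rgs9bp. The highest ratio to Rgs9bp, 58.7, was at P40 mid-night, where Rgs9bp was lowest. Rgs7, a relative of Rgs9 that also pairs with the Gnb5 product, had its larger step later. It was at 0.456 and 0.342 FPKM at E21, then 2.65 and 2.20 (P5), 30.5 and 29.6 (P20) and 39.3 and 23.9 (P40), with a step of 3.18 from P5 to P20 (adjusted p = 0.00104).

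Guca1a, the GCAP1 gene, had the largest change of the 7 from E21 to P40 in log2(FPKM + 1), a scale on which changes of the lower Arr3 are understated. It was at 0.824 and 0.330 FPKM at E21, then 8.78 and 9.06 (P5), 46.5 and 27.4 (P20) and 32.1 and 41.1 (P40). The libraries of E21, of P5 and of the 2 older ages did not overlap, while P20 and P40 did. The means were 0.577 ± 0.350, 8.92 ± 0.199, 36.9 ± 13.5 and 36.6 ± 6.38 FPKM (SD, n = 2). No fold is given, since it would rest on the E21 values under 1 FPKM, which differ widely. Guca1a rose by 2.67 ± 0.27 from E21 to P5 (limma adjusted p = 0.00134), by 1.89 ± 0.27 from P5 to P20 (adjusted p = 0.00944) and by 4.58 ± 0.27 from E21 to P40 (adjusted p = 3.87e-05). Its sister Guca1b, the GCAP2 gene, was higher in every library, at 17.7 and 17.7 FPKM at E21, then 213 and 157 (P5), 207 and 90.0 (P20) and 147 and 113 (P40). Guca1b had its highest mean at P5, having risen by 3.3 from E21 (limma adjusted p = 0.000853). The share of Guca1a in the FPKM of both GCAP genes was 4.45% and 1.83% at E21, then 3.96% and 5.46% (P5), 18.3% and 23.3% (P20) and 17.9% and 26.7% (P40).

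The cyclase that GCAPs activate was represented by Gucy2e, the retinal guanylate cyclase gene of rodents, at 1.67 and 2.99 FPKM at E21, then 7.73 and 4.96 (P5), 16.5 and 4.42 (P20) and 9.68 and 5.05 (P40). Its P40 against E21 change was 1.3 ± 0.44 (limma adjusted p = 0.0457), a call that was lost in 10 of 16 alternatives (adjusted p from 0.00544 to 0.331). The other cyclase genes Gucy2d and Gucy2f reached at most 0.0779 and 0.169 FPKM and were not tested. Guca1a was below Gucy2e at E21 (ratios 0.495 and 0.110) and above it in every later library, up to 8.14 at P40 mid-night.

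Cabp4, for the synaptic calcium sensor, was at 0.701 and 1.11 FPKM at E21, then 4.42 and 2.57 (P5), 22.8 and 8.52 (P20) and 14.6 and 7.27 (P40). The libraries of E21, P5 and the 2 older ages did not overlap, but both mid-day values at the older ages lay well above both mid-night values. The means were 0.903 ± 0.286, 3.50 ± 1.31, 15.7 ± 10.1 and 10.9 ± 5.18 FPKM (SD, n = 2). Cabp4 did not pass from E21 to P5 (1.22 ± 0.35, adjusted p = 0.0523), rose by 1.77 ± 0.35 from P5 to P20 (adjusted p = 0.0251) and was 2.59 ± 0.35 above E21 at P40 (adjusted p = 0.000996, limma). The call from E21 to P5 was made in 6 of 16 alternatives. The rise of Cabp4 from P5 to P20 was not kept without any 1 of the 4 libraries of these ages (limma adjusted p up to 0.188, without P5 mid-night).

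The calcium channel on which CaBP4 acts is built around the subunit from Cacna1f, which was at 12.4 and 16.8 FPKM at E21, then 46.3 and 42.1 (P5), 67.3 and 64.4 (P20) and 57.9 and 51.8 (P40). It was 1.85 ± 0.20 higher at P40 than at E21 (limma adjusted p = 0.000417). The accessory subunit genes Cacna2d4 (3.04 ± 0.19, adjusted p = 4.15e-05) and Cacnb2 (2.66 ± 0.26, adjusted p = 0.000259) were higher too. Another accessory subunit gene, Cacnb3, named after its values were seen, was lower (-1.94 ± 0.19, limma adjusted p = 0.00023). It went from 4.84 and 5.62 FPKM at E21 to 0.749 and 0.505 FPKM at P40. Cacna2d4 was at 1.78 and 1.89 FPKM at E21 and 25.7 and 19.5 FPKM at P40.

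**Figure D2:**
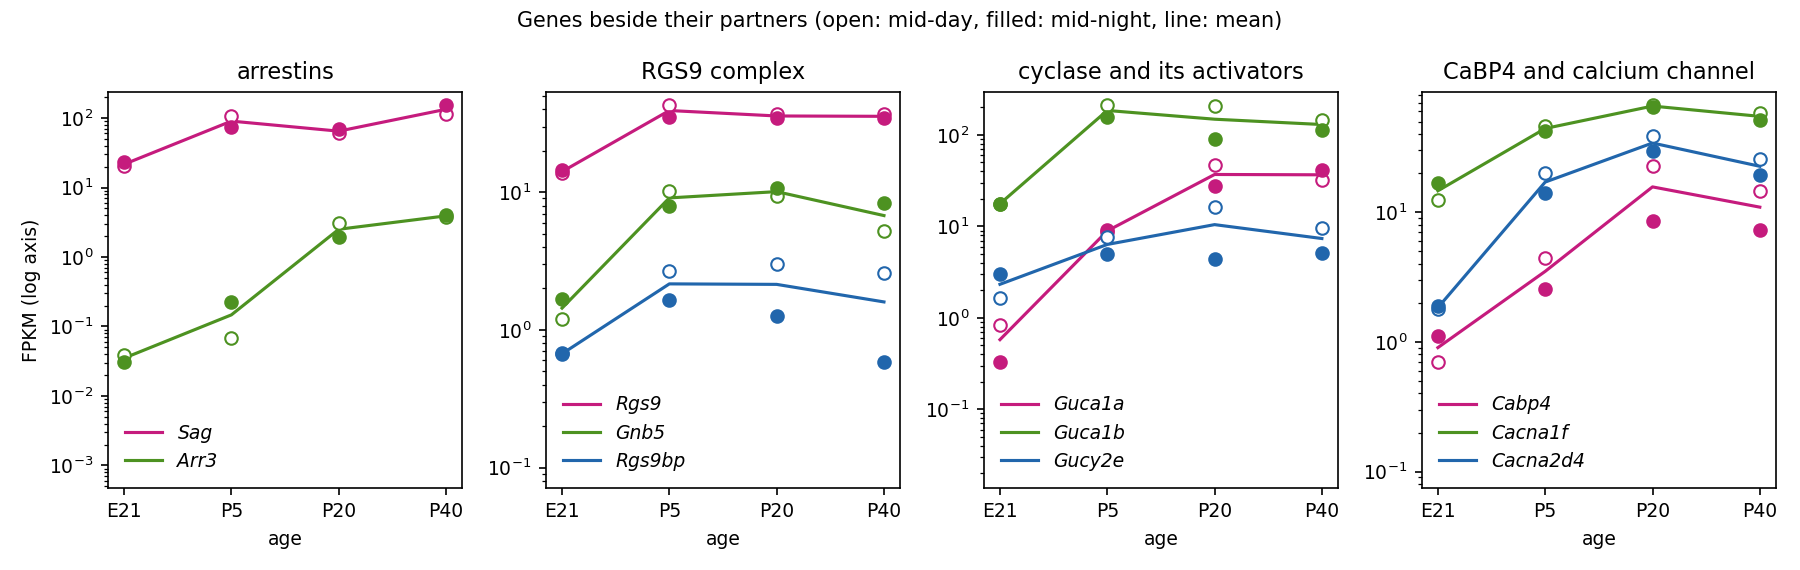
FPKM on log axes, by age (ages equally spaced), of Sag with Arr3, of Rgs9 with its complex partners Gnb5 and Rgs9bp, of Guca1a with Guca1b and the cyclase gene Gucy2e, and of Cabp4 with the calcium channel genes Cacna1f and Cacna2d4; open points are mid-day, filled points mid-night and lines the mean of both. Sag stays above Arr3, Rgs9 above Gnb5 and Rgs9bp, and Guca1b above Guca1a in all 8 libraries, while Guca1a passes Gucy2e from P5 on.

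The genes did not all pass at the same step of age, and whether the steps differ between genes was not tested. From E21 to P5, 4 of the 7 were called higher (Sag, Grk1, Rgs9 and Guca1a) and 0 lower, where 8.29% of transcripts were higher and 6.84% lower, with a median change of the 7 of 1.41 beside -0.04 over all tested transcripts. From P5 to P20, 4 were called higher (Arr3, Grk1, Cabp4 and Guca1a) and 1 lower (Rcvrn), where 1.02% were higher and 5.99% lower, with medians of 1.3 and -0.18. Grk1 and Guca1a were the ones to pass at both steps. The split over all transcripts at this step, 102 higher and 597 lower, became 219 and 313 with quantile normalization and 173 and 325 with median centring. The P5 to P20 calls were sensitive to single libraries: 0 of the 7 were kept without P5 mid-night, 1 (Grk1) without P20 mid-day, 2 (Arr3 and Guca1a) without P20 mid-night and 3 (Arr3, Grk1 and Rcvrn) without P5 mid-day. Over all transcripts the calls at this step fell from 699 to between 58 and 417 without either P5 library and between 50 and 190 without either P20 library. From P20 to P40, 0 of the 7 passed in limma, as did 0 transcripts in all, a background of 0%. At an unadjusted p under 0.05 there were 669 of the 9960 transcripts, Sag and Arr3 among them.

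**Figure D3:**
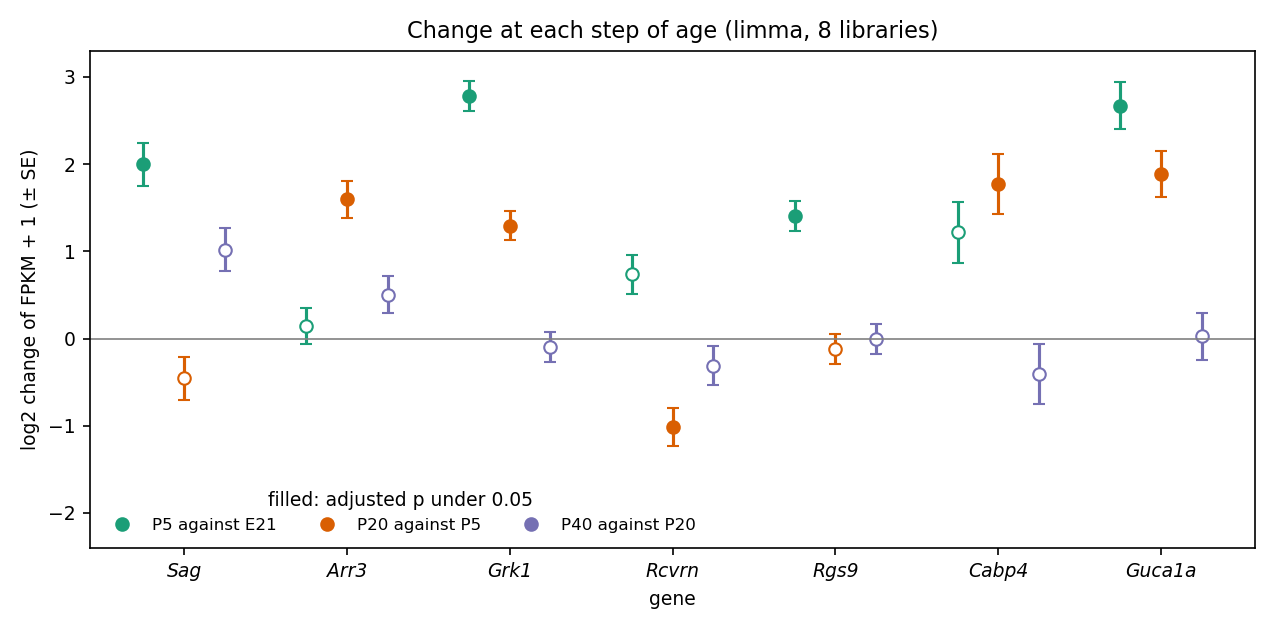
Change in log2(FPKM + 1) with its standard error (limma, 8 libraries) of each gene at the 3 successive steps of age, filled where the adjusted p was under 0.05. Sag and Rgs9 have their filled point at P5 against E21, Arr3, Cabp4 and Rcvrn at P20 against P5, Grk1 and Guca1a at both, and no gene at P40 against P20.

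The order of the genes by level changed with these steps. At E21 it was Sag, Rgs9, Grk1, Rcvrn, Cabp4, Guca1a and Arr3, with Cabp4 and Guca1a overlapping (0.701 and 1.11 against 0.824 and 0.330 FPKM). At P5 it was Sag, Rgs9, Grk1, Guca1a, Cabp4, Rcvrn and Arr3, with Cabp4 and Rcvrn overlapping (4.42 and 2.57 against 2.37 and 4.15 FPKM). At P20 it was Sag, Grk1, Guca1a, Rgs9, Cabp4, Arr3 and Rcvrn, with Guca1a and Rgs9 overlapping (46.5 and 27.4 against 37.1 and 34.5 FPKM). At P40 it was the same as at P20, with Guca1a and Rgs9 again overlapping (32.1 and 41.1 against 36.8 and 34.4 FPKM). Neighbours named as overlapping did not differ beyond the spread of their 2 libraries, and the order, which is that of mean FPKM, was not tested. Sag and Grk1 at P20, with ratios of 1.11 and 1.3, are listed by FPKM and not ranked, since exons were not analysed.

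The design also asks whether the genes differ between night and day. Over the 4 ages, 0 of the 7 passed, as did 0% of all transcripts (limma), with 1011 transcripts at an unadjusted p under 0.05, among them Cabp4 (-0.63 ± 0.25). The limma adjusted p of Cabp4 was 0.485. With P20 and P40 fitted as one night effect, 1 of the 7 passed: Cabp4 was lower at mid-night, with a change of -1.12 ± 0.24 (adjusted p = 0.0435), where 1.59% of transcripts were lower and 2.8% higher. It was lower in both pairs, 8.52 against 22.8 FPKM at P20 and 7.27 against 14.6 FPKM at P40. This call lies at the threshold: it was made in 7 of 15 alternatives (adjusted p from 0.0318 to 0.386, change from -1.32 to -0.86), and it was lost without any 1 of the 4 libraries of P20 and P40. Of these, the P20 mid-day library, where Cabp4 was highest, was also the shallowest.

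The other 6 did not pass at P20 and P40. Sag differed by 0.32 ± 0.23 (limma adjusted p = 0.485) and Rcvrn by 0.22 (adjusted p = 0.622), both higher at mid-night in these 2 ages. Grk1 (-0.08, adjusted p = 0.843) and Rgs9 (-0.10, adjusted p = 0.805) lay close to the median of all tested transcripts, -0.11. Guca1a (-0.20, adjusted p = 0.728) and Arr3 (-0.19, adjusted p = 0.645) went in opposite directions at the 2 ages. At E21 and P5, 0 of the 7 passed, where 0.0301% of transcripts did (3 of 9960, with 566 at an unadjusted p under 0.05), and Cabp4 differed by -0.15 ± 0.24 (adjusted p = 0.999). The night effect of the older ages was not shown to differ from that of the younger ages for any of the 7 (0 passed, against 0.753% of transcripts), with Cabp4 at -0.97 ± 0.34 (limma adjusted p = 0.282) and Sag at 0.47 ± 0.33 (limma adjusted p = 0.578).

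Within 1 age the comparison rests on a pair of libraries, so these differences have no replicate check. Cabp4 differed from mid-day to mid-night by 0.31 at E21, -0.60 at P5, -1.32 at P20 and -0.92 at P40 on the log2 scale. The share of tested transcripts with a lower value was 88.3%, 1.33%, 0.924% and 1.73% in turn, so from P5 on the gene stood near the lower end. The Cabp4 value at P20 was the only one of the 7 genes at least 2-fold lower in FPKM + 1, where 1.24% of transcripts were that much lower at E21, 0.301% at P5, 2.72% at P20 and 1.34% at P40. Guca1a differed by -0.46, 0.04, -0.74 and 0.35 at the 4 ages in order, Sag by 0.18, -0.48, 0.19 and 0.46, and Arr3 by -0.01, 0.20, -0.46 and 0.08. Rcvrn differed by -0.14, 0.61, 0.35 and 0.09. Grk1 and Rgs9 differed most at P5, by -0.18 and -0.28.

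**Figure D4:**
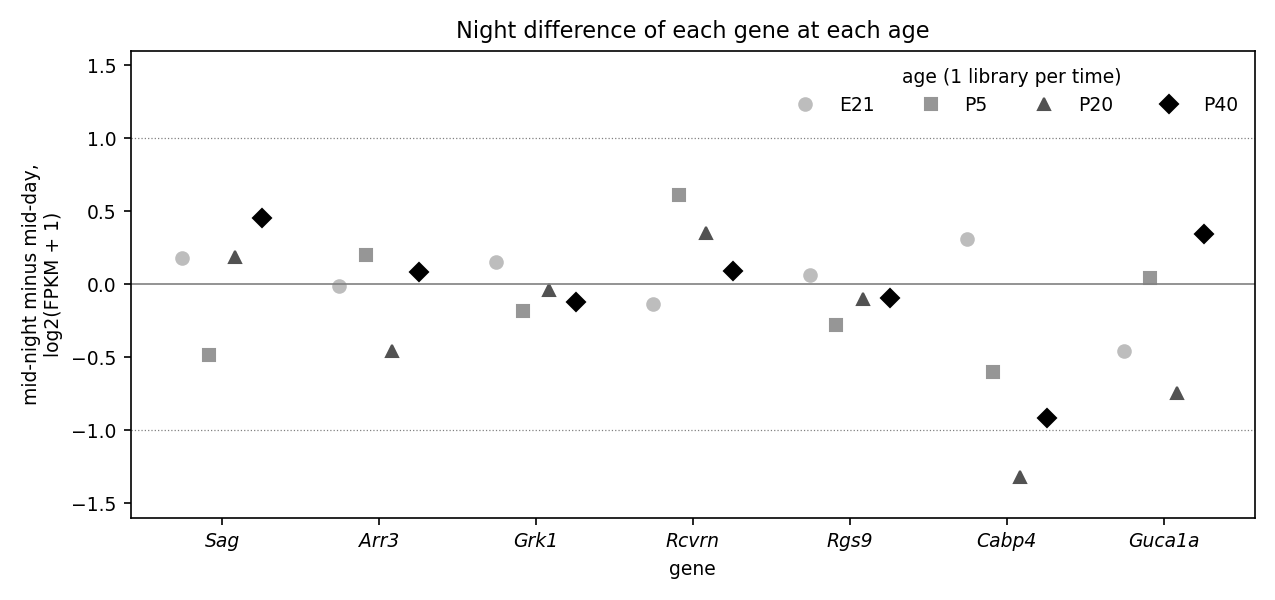
Difference of log2(FPKM + 1), mid-night minus mid-day, of each gene at each age, from 1 library for each time and so with no error bar; dotted lines mark 2-fold in FPKM + 1. Cabp4 is above 0 at E21 (0.31) and below 0 at P5, P20 and P40 (-0.60, -1.32 and -0.92), and at P20 it is the only point past a dotted line.

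Partners and relatives of the 7 genes went both ways at mid-night at P20 and P40, where 2.8% of all transcripts were higher and 1.59% lower. Of the relatives of the shutoff genes tested, 1 of 14 was higher (Rgs7bp) and 2 were lower (Rgs9bp and Pdc). Of those of the calcium sensors, 2 of 14 were higher (Ncald and Cabp1) and 1 was lower (Hpcal1), and in the other 3 pathway lists 0 passed. Rgs9bp was lower, with a change of -1.01 ± 0.20 (limma adjusted p = 0.0323) at 1.27 against 3.01 FPKM and 0.585 against 2.61 FPKM, while its partner Rgs9 differed by -0.10. Pdc, whose product phosducin binds the beta-gamma subunits of transducin, was lower, with a change of -1.83 ± 0.36 (adjusted p = 0.0323) at 46.1 against 291 FPKM at P20 and 140 against 284 FPKM at P40. Gucy2e (-1.25 ± 0.30, adjusted p = 0.0633) and Guca1b (-0.78, adjusted p = 0.152) did not pass. The Rgs9bp call was kept in 7 of 14 alternatives (adjusted p from 0.023 to 0.239) and the Pdc call in 7 of 15 (adjusted p from 0.016 to 0.3), and neither was kept without either P20 library, for Rgs9bp also without either P40 library and for Pdc also without any E21 or P5 library.

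Ncald, for neurocalcin delta, was higher at mid-night, at 81.9 against 18.1 FPKM at P20 and 63.1 against 20.9 FPKM at P40, with a change of 1.83 ± 0.21 (limma adjusted p = 0.00418, and up to 0.0552 without a P20 library). Rgs7bp, the gene of a membrane anchor of RGS7, was higher too, at 17.3 against 7.66 FPKM and 27.5 against 6.55 FPKM (1.50 ± 0.27, adjusted p = 0.0252). Its call was lost with no filter and without either P40 library (adjusted p up to 0.212). Cabp1, a relative of Cabp4, and Hpcal1, of the recoverin family, are named after their values were seen. Cabp1 was at 21.1 against 9.98 FPKM and 24.9 against 14.0 FPKM (0.90 ± 0.16, adjusted p = 0.0252, kept in 6 of 15 alternatives and lost without any 1 of the 8 libraries). Hpcal1 was at 1.69 against 10.5 FPKM and 5.87 against 10.3 FPKM (-1.40 ± 0.31, adjusted p = 0.0495, kept in 4 of 15 alternatives and lost without any 1 library of E21, P5 or P20).

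The wider pathway can be read from lists of related genes, given as counts of limma calls at P40 against E21, where 16.1% of all transcripts were higher and 26.8% lower. Of the relatives of the shutoff genes (receptor kinases, arrestins, RGS proteins and their partners), 14 of 18 were tested, 4 were higher and 3 lower, with a median change of 0.16. The 3 lower ones, named after their values were seen, were receptor kinase genes. They were Grk5 (-1.18 ± 0.18, limma adjusted p = 0.00178), Adrbk2 (-1.12 ± 0.20, adjusted p = 0.00392) and Grk6 (-0.68 ± 0.22, adjusted p = 0.037). The receptor kinase genes Grk4 (0.13, limma adjusted p = 0.61) and Adrbk1 (-0.01, adjusted p = 0.961) of the same list did not pass. The 4 higher ones were Rgs7 (4.50 ± 0.21), Pdc (2.87 ± 0.48), Rgs7bp (2.03 ± 0.45, adjusted p = 0.00918 and 0.069 without P40 mid-night), and Gnb5 (1.65 ± 0.24). Of the relatives of the calcium sensors, 14 of 19 were tested, 4 were higher and 6 lower, with a median of 0.35. The largest falls were those of Hpca, of the recoverin family (-2.95 ± 0.17, limma adjusted p = 4.01e-05), and Kcnip4 (-2.11 ± 0.29, adjusted p = 0.00114). Both have means under 5 FPKM and are named after their values were seen. Ncald (2.58 ± 0.52, adjusted p = 0.00584 and 0.0505 without P40 mid-night), Kcnip2 (2.16, adjusted p = 0.000793) and Cabp5 (1.97 ± 0.21, adjusted p = 0.00039) were higher, while Vsnl1, for visinin-like 1, fell by 1.78 ± 0.19 (adjusted p = 0.000374). Calm2, a calmodulin gene, fell by 0.64 (adjusted p = 0.0345, kept in 10 of 16 alternatives).

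Of the list of cyclase, exchanger and channel genes, 12 of 16 were tested, 8 were higher and 2 lower, with a median of 1.58. Its largest change was that of Slc24a1, the sodium-calcium-potassium exchanger of rods, by 4.15 ± 0.19 (limma adjusted p = 1.97e-05), from 1.07 and 1.56 FPKM at E21 to 39.2 and 40.5 FPKM at P40. Of the photoactivation genes upstream of quenching, 12 of 20 were tested, 7 were higher and 1 lower, with a median of 1.93, led by Gngt2 (4.46), Pde6c (3.26), Opn1sw (3.16) and Cngb1 (2.51), which encode the cone transducin gamma subunit, the cone phosphodiesterase, a short-wave opsin and a channel subunit. Of the photoreceptor transcription factors, 7 of 10 were tested, 1 was higher and 2 lower, with a median of -0.32. Beside these the 7 genes had 6 higher and 0 lower, and whether they differ from the lists was not tested.

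The likeness of whole profiles was measured as the root-mean-square difference of log2(FPKM + 1) over the 8 libraries after subtracting each transcript's mean. Among the 7, Grk1 and Guca1a were the closest pair (0.405), followed by Sag and Rgs9 (0.510), and Rcvrn and Guca1a were the farthest (2.16). The nearest other transcripts of Grk1 were Ptprn (0.203), Amph (0.213) and the exchanger gene Slc24a1 (0.311). Those of Guca1a were Car3 (0.349), Ptprn (0.394) and Grk1. Those of Rgs9 were Idh3a (0.106), RGD1304884 (0.110) and Rhot2 (0.117), and those of Sag were Fos (0.226), Plscr1 (0.234) and Qsox1 (0.247). Those of Cabp4 were Col5a3 (0.353), Dnm1 (0.432) and Cdh22 (0.439). Arr3 was nearest to RGD1310351 (0.224), Ttll12 (0.246) and Efemp1 (0.257), and Rcvrn to Gstm4 (0.162), Slc22a17 (0.165) and Rab31 (0.183). Small distances are easier to reach for genes that change little, and many of these neighbours were others with a pseudocount of 0.1 or with quantile normalization, while Idh3a stayed first for Rgs9 in all 3 settings.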

How the data were processed

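RNA of 8 pooled pineal libraries was sequenced as paired ends. Per the submitters' processing notes, the authors used TopHat 1.3.1, Cufflinks 1.2.0 and genome build rn4, and deposited FPKM for each RefSeq transcript; filters, strand use and scaling between libraries are not given in the sources used here. Counts were not used, so no counting intervals are given.

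From these, log2(FPKM + 1) was computed, which understates changes of genes near or under 1 FPKM. A transcript was tested where 2 or more libraries reached 1 FPKM, which 9960 did. They were fitted with limma 3.58.1 (R 4.3.3, moderated with a trend), after the fit had been tested on simulated data, and two-sided p-values were adjusted by Benjamini-Hochberg over all of them and called under 0.05. The terms of the first fit were age and the time of sampling (3 residual degrees of freedom, prior 4.816). The second had age and separate night effects for the younger and older ages (2 residual degrees of freedom, prior 5.659). List genes are counted, and named when they passed the age test at a mean of at least 5 FPKM with one of the 4 largest changes in a direction, or as direct partners. Neighbours in profile have a mean of at least 5 FPKM. The members and lists were chosen with earlier results of these data known. Deposited starts were read as counted from 0, since 99.7% of 1192 olfactory receptor spans were multiples of 3, and 1 was added. Alternatives were other pseudocounts, filters, scalings and spread estimates, no term for time of day, and each library left out.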

Additional observations from a re-analysis of the deposited data

Results flagged for a closer look

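Ncald, for the calcium sensor neurocalcin delta and a relative of Rcvrn, had a night effect that differed between the older and the younger ages, by 1.87 ± 0.30 on the log2 scale in the test of that difference (limma adjusted p = 0.0453). Mid-night was higher than mid-day by 1.83 ± 0.21 at P20 and P40 and differed by -0.03 ± 0.21 at E21 and P5 (adjusted p = 0.999). The call was kept in 4 of 15 alternatives (adjusted p from 0.0269 to 0.242) and was lost without any 1 of the 8 libraries. The cause was not tested.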

How the results depend on the processing

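No paired analysis was possible because there is a single pool for every combination of age and time; the term for age took the place of a block. Leaving out a library leaves its age with 1, which is then assumed to vary like the others. Of the 140 recomputed counts of called members, 126 stayed within 1.5 times and 14 were lower. The 126 include every recount of the comparisons in which 0 members had passed, which could not become lower. These were P20 to P40, night over the 4 ages, night at E21 and P5, and the difference of night effects. From P5 to P20 the count of 5 became 3 with no filter, 3 with a filter at 5 FPKM, and 0 to 5 with 1 library left out. For night against day at P20 and P40 the count of 1 became 0 with a pseudocount of 0.1, no filter, quantile normalization or median centring, and 0 to 1 with 1 library left out. Arr3 and Rcvrn could not be tested with the filter at 5 FPKM. The cause of these changes was not tested.

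Changes of sign all concerned differences that had not passed. From E21 to P5, Arr3 gave -0.00762 with quantile normalization and -0.0196 without P5 mid-night. From P5 to P20, Rgs9 gave 0.0853 with median centring. From P20 to P40, Guca1a gave -0.0642 with quantile normalization, -0.0198 with median centring and -0.34 to 0.39 with 1 library left out, and Cabp4 gave -0.87 to 0.0532. From E21 to P40, Arrb1 gave -0.12 without P40 mid-day and up to 0.497 without P40 mid-night. For night at P20 and P40, median centring gave 0.0116 for Rgs9 and 0.0303 for Grk1, and leaving out 1 library gave -0.74 to 0.35 for Guca1a and -0.46 to 0.0826 for Arr3. For night at E21 and P5, all 7 genes changed sign with 1 library left out, Cabp4 from -0.60 to 0.31, Sag from -0.48 to 0.18, Rcvrn from -0.14 to 0.61 and Guca1a from -0.46 to 0.04 among them.

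Over all transcripts, calls ranged over the alternatives from 2322 to 3694 for age (3629 as reported), 2333 to 4272 from E21 to P40 (4276), 484 to 1912 from E21 to P5 (1507), 50 to 748 from P5 to P20 (699), 105 to 523 for night at P20 and P40 (437), 0 to 4 for night at E21 and P5 (3), 0 to 106 for the difference of night effects (75) and 0 to 1 from P20 to P40 (0). From E21 to P40, 1602 higher and 2674 lower became 1957 and 2176 with quantile normalization and 2175 and 2004 with median centring, which moved the median of -0.18 to 0.01. For night at P20 and P40, 279 higher and 158 lower became 390 and 121 with median centring. Depth limits Arr3 before P20 and Guca1a at E21.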

Other observations

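Rcvrn was not alone in peaking at P5 among genes that rods use. The following genes of the photoactivation list were named after their values were seen. Gnat1, for the rod transducin alpha subunit, was at 1.50 and 2.10 FPKM at E21 (mid-day, then mid-night), then 2.69 and 3.38 (P5), 0.856 and 0.767 (P20) and 0.700 and 0.650 (P40). It fell by 1.15 on the log2 scale from P5 to P20 (limma adjusted p = 0.0152, kept in 12 of 15 alternatives and lost, with adjusted p up to 0.138, without P5 mid-night or either P20 library). Pde6a, a rod phosphodiesterase gene, was at 0.423 and 0.342 FPKM at E21, then 2.0 and 2.33 (P5), 1.26 and 1.24 (P20) and 0.901 and 0.642 (P40), and rose by 1.19 from E21 to P5 (adjusted p = 0.00583). As for Rcvrn, the P5 mid-night library was the highest of the 8 for both and the P5 mid-day library the next highest. The same 2 libraries had the highest and second highest sums of choroid plexus markers (17818 and 3064 FPKM, against 553 to 1392 FPKM at the other ages). The part of tissue makeup in this was not tested.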
